A study of Mus musculus with 12 samples.

Results

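In run 1 of a cell culture experiment, lung cells from infected mice that lack RELMa were given recombinant RELMa protein (rRELMa) or PBS, and the transcripts of a panel of myeloid genes were counted. Run 1 holds 6 of the study's 12 samples, 3 with rRELMa and 3 with PBS, grouped by their titles. Of the 754 endogenous genes on the panel, 400 had a mean raw count of at least 20 over these 6 samples and were tested, and 354 did not. Edc3, Ripk2 and Tmem173 lay just above this minimum, at a mean of 20 counts each. Ccr2 (19.5), Cd276 (19.2) and Egr3 (19.0) lay just below it.

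RELMa (resistin-like molecule alpha, gene Retnla) is a small secreted protein that alternatively activated macrophages and airway epithelium make in large amounts during worm infection. Alternative activation is the state that macrophages take on under interleukin-4 and interleukin-13, marked in mice by RELMa itself, by the arginine-degrading enzyme arginase 1 (Arg1) and by the chitinase-like proteins Chil3 and Chil4. In worm-infected mice RELMa is known to restrain type 2 inflammation. In the lung, alveolar macrophages carry the integrin CD11c, and so do dendritic cells.

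All samples came from RELMa-/- mice infected with 500 larvae of the nematode Nippostrongylus brasiliensis, whose larvae pass through the lung, and cells were taken at day 10. CD11c+ cells sorted from the lungs spent a night in culture at 37 °C with 10% serum and were then held in 1% serum, for 1 h according to the growth protocol and 2 h according to the design text. The 3 rRELMa samples then received 500 ng/ml of the protein for 4 h, and the 3 PBS samples received PBS for the same time. Both groups therefore share the gene deletion, the infection and the culture, and no uninfected sample and no sample with intact Retnla is among the 12. The labels used here give no age or sex of the mice and do not tell whether each numbered sample is a separate animal, so each p-value reflects only how far these samples scatter, which may be technical scatter.

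The assay was the NanoString nCounter Myeloid Innate Immunity Panel, in which barcoded probes bound to each transcript are counted one by one without sequencing. Endogenous counts summed to 179719 to 252954 per rRELMa sample and 200056 to 257415 per PBS sample. The 8 negative-control probes averaged 9.5 to 14.1 counts with rRELMa and 13.6 to 15 with PBS, and their mean plus 2 SD, taken as the background limit, was 19.7 to 27.1 and 23.7 to 31.1 counts. Of the tested genes, 335 lay above that limit in all 6 samples and 65 in fewer. Retnla gave 6, 11 and 10 raw counts with rRELMa, against 11, 11 and 12 with PBS, which is the level of the negative controls in both groups. It lay below the minimum and was not tested, and the added protein is not itself measured by the assay. Itgax, the gene of CD11c, was above the limit in all 6 samples, with 201, 234 and 203 TMM-scaled counts with rRELMa and 194, 179 and 218 with PBS. TMM-scaled counts are raw counts divided by a factor per sample that evens out the total and the trimmed mean of gene ratios, and all levels below are on this scale unless called raw. Levels of different probes are not comparable with each other.

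Arg1 was lower with rRELMa, and it was the one gene of the 400 that passed the test. It had 85.8, 83.0 and 106 TMM-scaled counts with rRELMa, against 144, 125 and 128 with PBS. All 3 rRELMa samples lay below all 3 PBS samples, and the gap between the groups was about as wide as the spread within either. Arg1 averaged 91.5 ± 12.4 counts with rRELMa and 132 ± 10.0 counts with PBS (SD, n = 3 each). It fell by 31.2%, a log2 fold change of -0.54 with an SE of 0.13 and a 95% interval of -0.79 to -0.29 (edgeR quasi-likelihood test, Benjamini-Hochberg adjusted p = 0.00718). The call thus took in 0.25% of the tested genes, all of it on the lower side. The raw counts were 78, 95 and 84 with rRELMa and 133, 139 and 150 with PBS, so the groups were also apart before scaling, and every one exceeded its sample's background limit. In samples of mixed cells such as these, fewer cells that express Arg1 and less Arg1 transcript per cell cannot be told apart.

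The Arg1 call was not kept in every fit. The SE, interval and adjusted p above used a spread pooled over the tested genes, not the scatter of Arg1 alone. An exact two-sided permutation test of Arg1 alone gave p = 0.1, the smallest that 3 samples against 3 can give. The direction was lower in all 24 other fits, with log2 fold changes of -0.72 to -0.47, and the gene was called in 18. It was not called by DESeq2 (log2 fold change -0.54, adjusted p = 0.453), by limma after quantile normalization (-0.55, adjusted p = 0.226) or by edgeR with no minimum count (-0.53, adjusted p = 0.0509). Leaving out rRELMa sample 1 gave -0.51 (edgeR, adjusted p = 0.0632) and leaving out rRELMa sample 2 gave -0.47 (adjusted p = 0.382). Leaving out PBS sample 1 gave -0.48 (edgeR, adjusted p = 0.0752). Each of these fits also held 1 sample fewer, and the part of that in the lost calls was not tested.

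**Figure D1:**
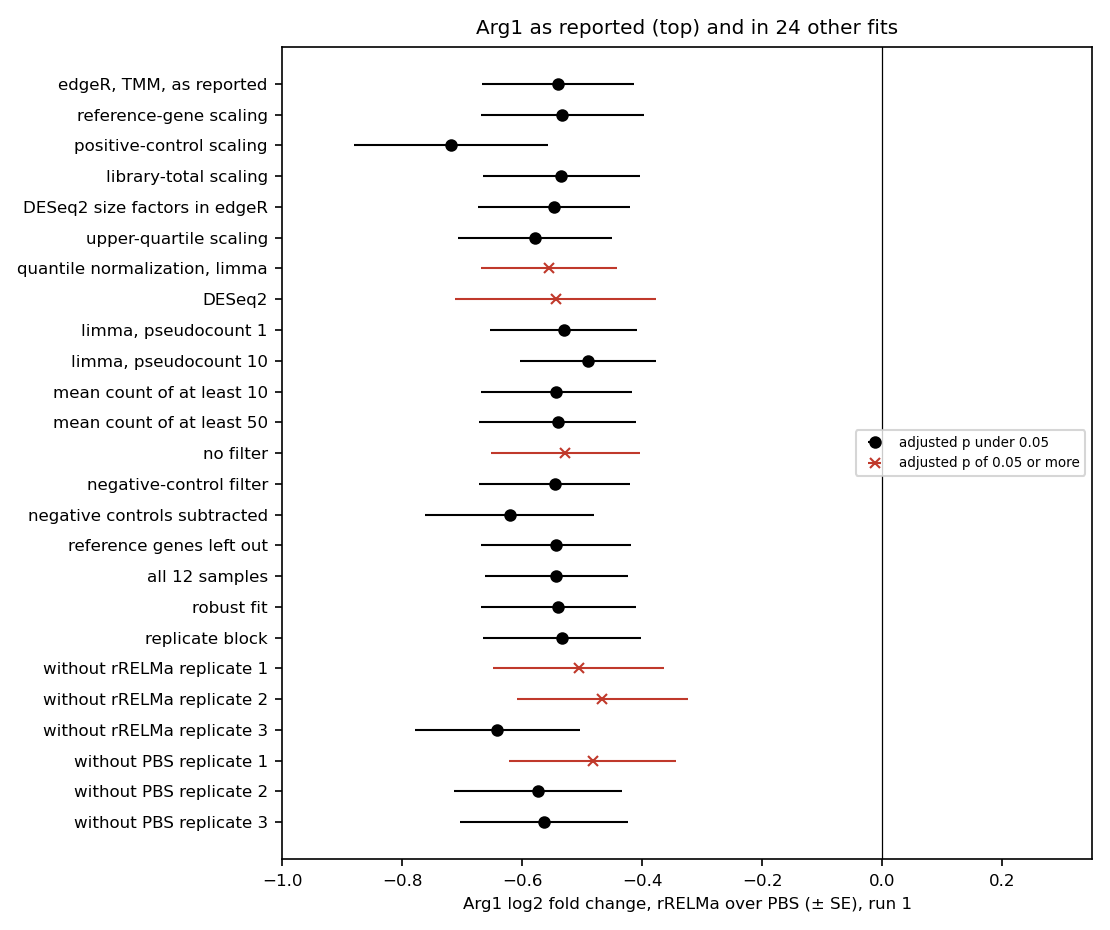
Log2 fold change of Arg1, rRELMa over PBS in run 1, with its SE as a horizontal bar, as reported in the top row and in 24 other fits below. All points lie left of 0, between -0.72 and -0.47, and crosses mark the 6 fits whose adjusted p was 0.05 or more.

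Across the 400 genes the differences between treatments were small. The median log2 fold change was 0.01 and the median absolute value 0.09, against a median SE of 0.13. Values were above 0 for 213 genes (53.2%). A difference of 1.5-fold or more was seen for 3 genes, Btg2, Terf2ip and Ccl3, and of 1.2-fold or more for 46. At an unadjusted p under 0.05 there were 35 genes (8.75%), 21 higher (5.25%) and 14 lower (3.5%) with rRELMa. The 3 samples of each treatment did not overlap for 54 genes (13.5%), of which 34 (8.5%) were higher and 20 (5%) lower with rRELMa. These shares hold under TMM scaling. When samples were scaled to the positive-control probes instead, the median of all genes was -0.17, and the split of the non-overlapping genes was 1 higher and 76 lower. No gene list described below had a median above 0 with that scaling. Beside this stand the endogenous counts per positive-control count, which were 1.39, 1.71 and 1.6 with rRELMa and 1.63, 1.88 and 1.80 with PBS. With upper-quartile scaling the split was 25 higher and 30 lower. Directions given below are relative to the bulk of the tested genes.

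**Figure D2:**
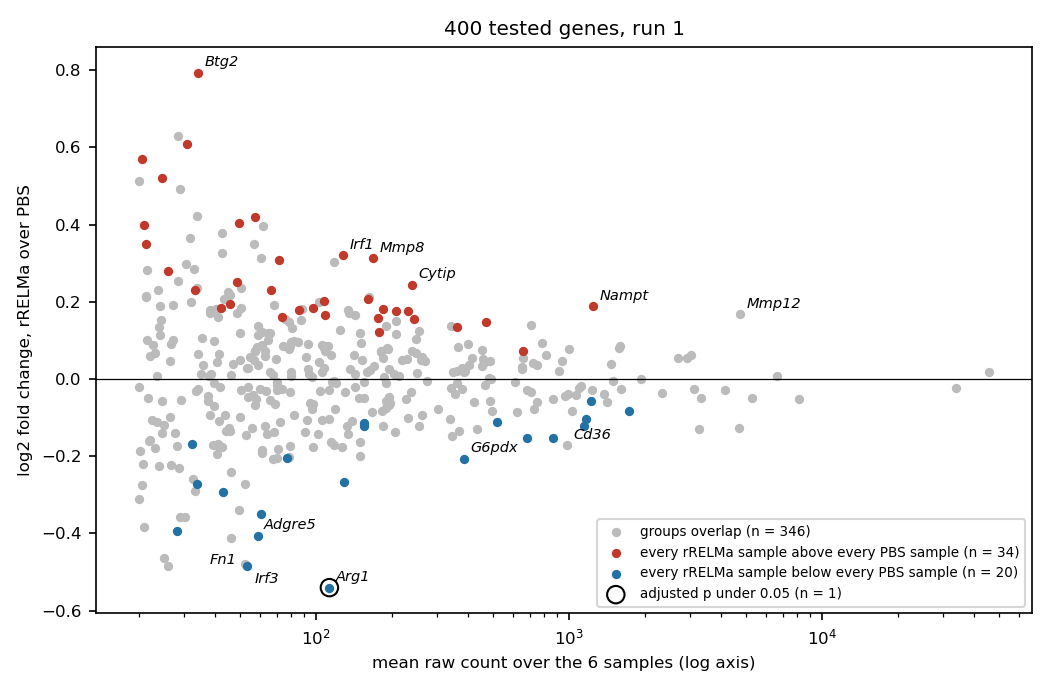
Log2 fold change of the 400 tested genes, rRELMa over PBS in run 1 (vertical axis), against the mean raw count over the 6 samples (horizontal log axis); each point is a gene. Points fan out below about 50 counts and draw close to 0 at high counts, and Arg1 at -0.54, circled, is the one gene with an adjusted p under 0.05, while Btg2 at 0.79 lies farther from 0 at a lower count.

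Nos2 and Acod1, other enzymes of activated macrophages, showed no called difference. Nos2, the inducible nitric oxide synthase that turns arginine into nitric oxide, had 185, 169 and 159 TMM-scaled counts with rRELMa, against 177, 172 and 153 with PBS. The groups overlapped throughout, and the log2 fold change was 0.03 (SE 0.10). Acod1, which makes the antimicrobial metabolite itaconate, had 78.1, 77.7 and 76.8 counts with rRELMa and 77.7, 74.6 and 85.3 with PBS, a log2 fold change of -0.03 (SE 0.14). Arg1, Nos2 and Acod1 were the 3 members of the arginine, nitric oxide and itaconate list on the panel. The 1 of 3 that passed is the Arg1 call above, against 0.25% of all tested genes.

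None of the other markers of alternative activation passed the test. Of the 14 tested genes of that list, 13 did not pass the test (edgeR) and Arg1 fell. Among all 14, 9 values were above 0 and 5 below, with a median log2 fold change of 0.03 against 0.01 over all tested genes. Chil3, whose probe gave the highest counts of the panel, had 43075 to 47185 TMM-scaled counts with rRELMa and 42327 to 47512 with PBS, with a log2 fold change of 0.02 (SE 0.08). Chil4, its close paralog, had a log2 fold change of -0.02 (SE 0.07). Together they took 34.8% to 36.7% of endogenous counts with rRELMa and 34.5% to 36.7% with PBS, so the groups overlapped almost fully, and the split between the paralogs is uncertain because the probes' specificity is not given. Mrc1, the mannose receptor of alternatively activated macrophages, had 118, 111 and 108 counts with rRELMa and 110, 103 and 105 with PBS (0.08, SE 0.13). Ccl24, an attractant of eosinophils, was the 1 gene of the 14 whose groups stood apart on the higher side, against 8.5% of all tested genes. It had 195, 185 and 209 counts with rRELMa, against 179, 182 and 156 with PBS, and a log2 difference of 0.18 (SE 0.10, edgeR, adjusted p = 0.61) that did not pass the test. On the lower side the groups of 2 of the 14 stood apart, Arg1 and Il1rn, against 5% of all tested genes. Il1rn, whose values follow with the secreted regulators, had a log2 fold change of -0.15 and did not pass. Pdcd1lg2, a ligand of the inhibitory receptor PD-1, had a log2 fold change of 0.29 (SE 0.23) and Il4ra, the receptor chain shared by interleukin-4 and interleukin-13, 0.09 (SE 0.11).

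Transcripts of receptors and signalling proteins of interleukin-4 and interleukin-10 were tested for 5 genes, and none passed. The activity of these pathways was not measured. Il4ra, Jak3 (0.07) and Il10ra (0.05) had log2 fold changes above 0 and the interleukin-4 transducer Stat6 (-0.01) and Socs1 (-0.39), an inhibitor of cytokine signalling, below it. Socs1 had 27.5, 21.0 and 23.9 counts with rRELMa and 28.1, 32.3 and 33.3 with PBS, which did not overlap but lay near the background limit. Btk, a tyrosine kinase of immune receptor signalling, had 102, 114 and 96.9 counts with rRELMa and 95, 93.4 and 121 with PBS. These groups overlapped, with a log2 fold change of 0.02 (SE 0.13). The 7 tested kinases and adaptors had 5 values above 0 and a median of 0.02. Vav1, a signalling protein of blood cells, was the 1 of these 7 whose groups did not overlap, against 13.5% of all tested genes, at 218, 222 and 216 counts with rRELMa and 188, 205 and 188 with PBS (0.18, SE 0.09).

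**Figure D3:**
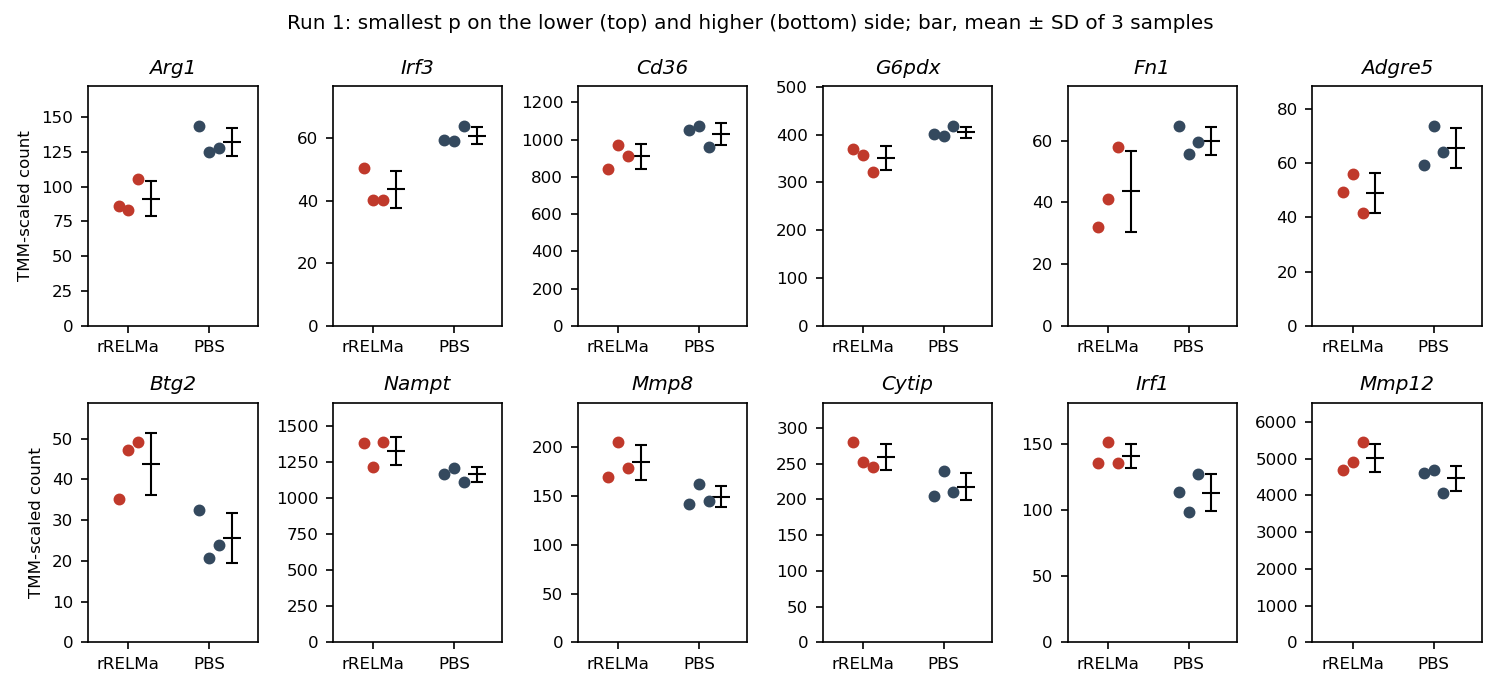
TMM-scaled counts of single run 1 samples (points, vertical axes starting at 0), rRELMa left and PBS right, for the 6 genes with the smallest p on the lower side (top row) and on the higher side (bottom row); bars give the mean ± SD of 3 samples. For Arg1 the rRELMa samples sit at 83.0 to 106 and the PBS samples at 125 to 144, whereas for Cd36, Fn1 and Mmp12 the groups overlap.

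Genes on the higher side did not pass the test, and their values are given as a description. The smallest p belonged to Btg2, an antiproliferative gene induced early after stimulation. Btg2 had 35.2, 47.2 and 49.1 TMM-scaled counts with rRELMa, against 32.4, 20.7 and 23.9 with PBS. The groups were apart, but by less than 3 counts, and 5 of 6 samples were above the background limit. The log2 fold change was 0.79 (SE 0.23, edgeR, adjusted p = 0.081), and without rRELMa sample 1 Btg2 was called (0.92, adjusted p = 0.0387) while Arg1 was not. Nampt, the enzyme of nicotinamide salvage and a secreted cytokine, was measured far more precisely. It had 1382, 1215 and 1383 counts with rRELMa and 1167, 1208 and 1110.2 with PBS, which gave a log2 difference of 0.19 (SE 0.06, adjusted p = 0.268). The lowest rRELMa sample and the highest PBS sample nearly coincided.

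Proteases of the matrix followed. Mmp8, a collagenase best known from neutrophils, had 169, 204 and 179 counts with rRELMa and 141, 162 and 144 with PBS. The groups did not overlap, and the log2 fold change was 0.31 (SE 0.10, edgeR, adjusted p = 0.268). Mmp12, the macrophage elastase, had 4686, 4921 and 5443 counts with rRELMa and 4623, 4694 and 4081 with PBS (0.17, SE 0.06, adjusted p = 0.268), and rRELMa sample 1 lay just below PBS sample 2. Of the 8 tested genes of matrix remodelling none passed, 5 values were above 0 and the median was 0.10. Mmp8 had the list's highest value and Fn1, the gene of fibronectin, its lowest. Fn1 had 31.9, 41.0 and 57.9 counts with rRELMa, against 64.8, 55.7 and 59.7 with PBS, where rRELMa sample 3 lay within the PBS range. Its log2 fold change was -0.48 (SE 0.18, adjusted p = 0.268).

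Cytip, a regulator of leukocyte adhesion, had 279, 252 and 245 counts with rRELMa, against 204, 240 and 210 with PBS (log2 fold change 0.24, SE 0.09, edgeR, adjusted p = 0.268). Irf1, a transcription factor induced by interferon, had 135, 151 and 136 counts with rRELMa and 113, 98.8 and 127 with PBS (0.32, SE 0.12, adjusted p = 0.268). Both genes had every rRELMa sample above every PBS sample. Ptger2, a receptor of prostaglandin E2, had 64.9, 57.6 and 78.0 counts with rRELMa, against 46.4, 50.3 and 50.3 with PBS (0.42, SE 0.17, adjusted p = 0.339). It too showed no overlap, although rRELMa sample 3 stood above the others. Terf2ip, a telomere-binding protein, overlapped widely, at 41.8, 25.3 and 40.3 counts with rRELMa and 36.7, 20.7 and 12.8 with PBS (0.63, SE 0.25). Only 4 of its 6 values exceeded the background limit. Kcnq1ot1, a long non-coding RNA, had 51.7, 60.3 and 56.6 counts with rRELMa and 38.9, 36.8 and 51.2 with PBS (0.41, SE 0.18).

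On the lower side, Irf3, the transcription factor that turns on type I interferon, came next after Arg1. It had 50.6, 40.2 and 40.3 TMM-scaled counts with rRELMa, against 59.4, 59.3 and 64.0 with PBS. The groups did not overlap, and the log2 fold change was -0.49 (SE 0.18, edgeR, adjusted p = 0.268), which did not pass. G6pdx, the entry enzyme of the pentose phosphate pathway, had 371, 357 and 322 counts with rRELMa and 401, 396 and 418 with PBS (-0.21, SE 0.08, adjusted p = 0.268). Cd36, a scavenger receptor and fatty acid transporter, had 843, 973 and 914 counts with rRELMa and 1049, 1073 and 961 with PBS. For G6pdx the groups were apart, and for Cd36 (-0.17, SE 0.06) rRELMa sample 2 lay just above PBS sample 3. Adgre5, an adhesion receptor, had 49.5, 55.9 and 41.5 counts with rRELMa and 59.4, 73.7 and 64.0 with PBS (-0.41, SE 0.17, adjusted p = 0.368).

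The secreted regulators Il1rn and Mif differed little but evenly. Il1rn, the antagonist of the interleukin-1 receptor, had 791, 852 and 781 counts with rRELMa, against 932, 888 and 883 with PBS (log2 fold change -0.15, SE 0.06, edgeR, adjusted p = 0.378). Mif, a macrophage cytokine, had 613, 637 and 669 counts with rRELMa and 706, 714 and 709 with PBS (-0.15, SE 0.07, adjusted p = 0.464). Neither gene's groups overlapped, and neither passed. Ifnar2, a chain of the type I interferon receptor, had 114, 118 and 115 counts with rRELMa and 153, 134 and 133 with PBS (-0.27, SE 0.12), again without overlap. Nfatc1, a calcium-regulated transcription factor, had a log2 fold change of -0.41 (SE 0.19), and the calcium-binding S100a11 had -0.13 (SE 0.06). Ly6c1, from the list of monocyte markers, had -0.35 (SE 0.17).

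Among the chemokines, 0 of 9 tested CC and 0 of 6 tested CXC, CX3C and XC genes passed. For CC chemokines 6 log2 fold changes lay above 0 around a median of 0.05, and for the other chemokines 5 did, around 0.09. In run 2, by a fit of all 12 samples, 7 of the 9 CC values were above 0 (median 0.10). Of the 6 others 0 were above 0 there (median -0.20). Ccl3, which draws monocytes and lymphocytes, had the largest run 1 value of these chemokines. Its counts were 44.0, 34.9 and 34.0 with rRELMa, against 25.9, 22.5 and 25.6 with PBS. The groups were apart, the log2 fold change was 0.61 (SE 0.24, edgeR, adjusted p = 0.308), and 4 of 6 samples exceeded the background limit. Ccl6, made abundantly by alveolar macrophages, had 243, 265 and 257 counts with rRELMa and 220, 236 and 229 with PBS (0.16, SE 0.09). Cxcl9 (-0.20) and Cxcl10 (0.21), both interferon-inducible, had values on opposite sides of 0, and both had overlapping groups. Of the 6 tested chemokine receptors none passed. Ccr7, which guides dendritic cells to lymph nodes, was highest at 0.30, and Cxcr4, the receptor of Cxcl12, was lowest at -0.14.

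Inflammatory and interferon-related groups held no called gene. The 10 genes of classical activation and the TNF family had 5 values on each side of 0, with the prostaglandin synthase Ptgs2 at 0.20 and the death ligand Tnfsf10 at -0.19. The interleukin-1 family and inflammasome had 3 of 6 on each side, with the sensor Nlrp3 at 0.42, whose groups overlapped, and Il1rn at -0.15. Of 13 interferon-stimulated genes 8 were above 0, and the median of 0.01 equalled that of all tested genes. The antiviral GTPase Mx2 (-0.29) and Irf1 (0.32) were the extremes. Pattern recognition had 9 of 14 above 0 and a median of 0.08. Highest were Tmem173, an adaptor of nucleic acid sensing (0.51, above the limit in 1 of 6 samples), and the sensor Tlr9 (0.49, in 3 of 6). Of the 8 genes of NF-kB and MAP kinase signalling, 6 were above 0 (median 0.08). Mapk14, the p38 kinase, did not overlap, at 106, 110 and 128 counts with rRELMa and 104, 96.1 and 105 with PBS. The 12 immediate early and stress genes had 9 values above 0 and a median of 0.06. Besides Btg2, Gadd45b, a stress sensor, stood apart with 74.8, 83.8 and 75.5 counts with rRELMa and 51.8, 68.3 and 68.2 with PBS (0.31, SE 0.15).

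Antigen presentation genes had log2 fold changes close to 0, at mean raw counts from 54.8 for H2-DMb1 to 6622 for H2-K1. The median of the 11 class I genes was -0.02 on the log2 scale, and they ranged from -0.11 for the peptide-loading factor Tapbp to 0.14 for H2-T23. That of the 7 class II genes was 0.03, and they ranged from -0.13 for the invariant chain protease Ctss to 0.08 for H2-DMa. Ctss had 4064, 4476 and 4870 counts with rRELMa, against 4959, 4877 and 4796 with PBS, where rRELMa sample 3 overlapped the PBS range. It was not called by edgeR (adjusted p = 0.564). After quantile normalization limma called it in place of Arg1 (-0.14, adjusted p = 1.24e-06). That normalization gives every sample the same set of values, so a gene differs between samples only by its rank. In that fit the lysosomal gene Ctsd had a log2 fold change of 2.06e-15, and the median of the 7 class II genes was 2.29e-15. Both are 0 within rounding. The small p of Ctss there came from another normalization and test than the edgeR values, and its dependence on ranks was not tested. Costimulation and checkpoint genes had 5 of 11 values above 0 (median -0.03), from Cd244 at -0.22 to Pdcd1lg2 at 0.29. Havcr2, the checkpoint receptor TIM-3, did not overlap, at 166, 171 and 175 counts with rRELMa and 150, 135 and 159 with PBS (0.21, SE 0.11).

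Adhesion, uptake and lipid genes also held no call. Integrins and adhesion had 9 of 12 values above 0 and a median log2 fold change of 0.10. In 3 of the 12 (Itgam, Itgb1 and F11r) every rRELMa sample lay above every PBS sample, against 8.5% of all tested genes. Itgb1, the beta chain of many matrix receptors, had 362, 387 and 369 counts with rRELMa and 309, 350 and 357 with PBS (0.13, SE 0.08). Scavenger and phagocytic receptors had 2 of 8 values above 0 (median -0.04), with Cd36 and the apoptotic cell receptors Stab1 (-0.20) and Timd4 (-0.23) lowest. Lysosomal genes had 2 of 7 above 0 (median -0.04), Fc receptors 2 of 4 (median -0.05) and complement genes 3 of 7 (median -0.01). In lipid handling 6 of 12 were above 0 (median 0.01). Lpl, the lipoprotein lipase of alveolar macrophages, had 1045, 1130.1 and 1169 counts with rRELMa, just below the 1177, 1185 and 1225 with PBS. Its log2 fold change was -0.10 (SE 0.06), while Ptger2 and the prostaglandin synthase Ptgs1 lay at 0.42 and 0.40.

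Genes of survival had 3 of 7 values above 0 and a median of -0.07, with Bcl2, an inhibitor of apoptosis, at 0.52 and its opponent Bid at -0.36. Bcl2 had 29.7, 30.6 and 26.4 counts with rRELMa, against 24.8, 14.4 and 22.2 with PBS, and 4 of 6 samples exceeded the background limit. Hypoxia, glycolysis and growth factor genes had 4 of 9 above 0 (median -0.03), with the growth factor Pdgfa lowest at -0.48 and its groups overlapping. The 19 tested reference genes, chosen as genes commonly held to be stable, had a median of -0.02, and 9 were above 0. G6pdx was the 1 of them with an unadjusted p under 0.05, against 8.75% of all tested genes.

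**Figure D4:**
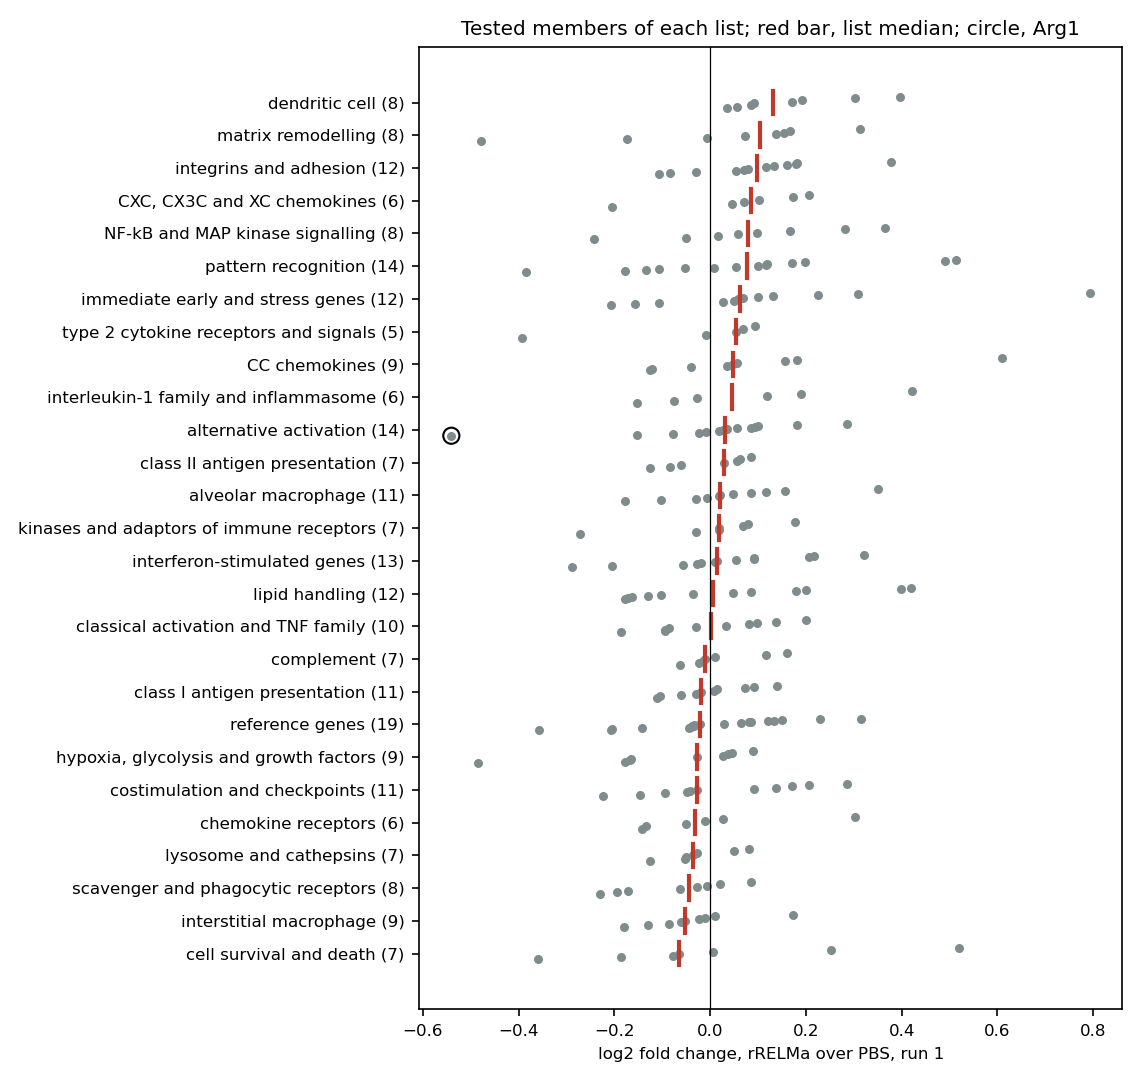
Log2 fold change, rRELMa over PBS in run 1, of the tested members (grey points) of each list with at least 5 tested genes, with the list median as a red bar and the number of tested members in brackets. The medians lie between -0.07 and 0.13, and Arg1 at -0.54, circled, stands apart from the other 13 genes of alternative activation.

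Markers of the cells in the gate were set against the label. All 11 alveolar macrophage markers on the panel were tested, and none passed. Their log2 fold changes centred on a median of 0.02, with 7 above 0, and their counts summed to 45426, 49272 and 49692 TMM-scaled counts with rRELMa and 44803, 49960 and 48078 with PBS, mostly Chil3. Siglecf, the sialic acid-binding receptor of alveolar macrophages and eosinophils, was low, at 22, 26.2 and 22.6 counts with rRELMa and 20.5, 14.4 and 21.3 with PBS. It exceeded the background limit in 2 of 6 samples. Interstitial macrophage markers had 2 of 9 values above 0 (median -0.05) and monocyte markers 2 of 4 (median -0.07).

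For dendritic cell markers 8 of 8 tested values lay above 0, against 53.2% of all tested genes. Their median was 0.13 on the log2 scale, and none passed the test. They summed to 613, 575 and 511 TMM-scaled counts with rRELMa, against 423, 564 and 513 with PBS. The sums overlapped, with PBS sample 1 far below the rest. Ccr7 had 145, 127 and 117 counts with rRELMa and 77.7, 120 and 113 with PBS (0.30, SE 0.12), and Fscn1, an actin-bundling protein of mature dendritic cells, had 92.4, 55.9 and 64.2 with rRELMa and 35.6, 58.4 and 62.2 with PBS (0.40, SE 0.16). Both genes had their lowest value in PBS sample 1, and no marker of the list had groups that did not overlap. The list's median was 0.09 without PBS sample 1, 0.08 without rRELMa sample 2 and 0.27 without PBS sample 2. With positive-control scaling 3 of 8 values were above 0. In run 2, by a fit of all 12 samples, 5 of 8 were above 0 and the median was 0.07. The part of the dendritic cell markers in the Arg1 value was not tested.

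Markers of other cell types were mostly below the minimum. Of 13 neutrophil markers 3 were tested, and while S100a8 reached 223, 176 and 169 TMM-scaled counts with rRELMa and 230, 172 and 188 with PBS, Ly6g averaged 4.33 raw counts over the 6 samples and S100a9 12. The raw counts of the 13 summed to 499, 598 and 361 with rRELMa, overlapping the 467, 538 and 561 with PBS. Ly6g and S100a9 were thus at background while S100a8, Mmp8 and Cxcr1, a receptor of neutrophil-attracting chemokines, were not. Cxcr1 had 72.6, 55.9 and 39.0 counts with rRELMa and 52.9, 68.3 and 53.7 with PBS, which overlapped. Of 8 eosinophil markers 2 were tested (Siglecf and Ear6), with the granule genes Epx at 2.50 and Prg2 at 4.17 raw counts. Mast cell or basophil markers (0 of 9) and B cell markers (0 of 1) gave no tested gene. T cell markers (1 of 1), NK cell markers (2 of 3) and epithelial, endothelial or stromal markers (1 of 7) gave few. That 1 was Cav1, the gene of caveolin 1, with 1368, 1438 and 1647 counts with rRELMa and 1476, 1433 and 1416 with PBS, well above background in all samples and overlapping between treatments. Nkg7, an NK cell gene below the minimum, had 10, 7 and 3 raw counts with rRELMa and 10, 26 and 22 with PBS. It was called when the minimum was set to 10 counts (log2 fold change -1.35, edgeR, adjusted p = 0.03), where all its values were at or below the level of the background limit.

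What the counts could show depended on their size. Among the 113 genes with a mean of 20 to 50 counts the median SE was 0.23, and the 95% interval lay within 1.5-fold of no change for 39. Among the 95 genes from 50 to 100 counts it did so for 84, and from 100 to 500 counts for 133 of 134. Of the 58 genes with 500 counts or more, 52 had an interval within 1.2-fold of no change. These intervals take in only the spread between these samples.

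Run 2, with 3 further samples per treatment, gave values that did not enter the run 1 fit. Arg1 had 18.8, 18.5 and 17.4 TMM-scaled counts with rRELMa in run 2, against 27.5, 26.6 and 26.5 with PBS, on the scale of a fit of all 12 samples. The groups were again apart on that scale, but the raw counts overlapped, at 33, 29 and 27 with rRELMa and 44, 45 and 26 with PBS, close to the background limit. The log2 fold change in that fit was -0.56 (SE 0.19, edgeR, adjusted p = 0.383), not called. The difference of the Arg1 effect, run 1 minus run 2, was 0.02 (SE 0.22, edgeR, adjusted p = 0.991). Of the 24 genes ranked first by p in run 1, 12 per direction, the 23 other than Arg1 all had a smaller absolute value in run 2. Among all 400 genes 240 did. Because the 24 were chosen by their p in run 1, smaller values in run 2 follow in part from that choice. Of the 23 genes, 12 had the same sign in run 2 (52.2%, against 53% of all 400 genes), and none passed there. Of the 54 genes whose groups did not overlap in run 1, 30 had the same sign in run 2 (55.6%). Among the 400 genes, which were chosen on run 1 counts, the fit of all 12 samples called 0 (0%) in run 2 at an adjusted p under 0.05. At an unadjusted p under 0.05 there were 30 (7.5%). In run 2 itself 446 genes reached the minimum count, and 384 of them are among the 400. As a description over genes that share their samples, the effects in run 1 and run 2 correlated across the 400 genes with r = 0.11 (Pearson) and rho = 0.12 (Spearman).

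In run 2 the groups did not overlap for 56 of these genes (14%). In both runs they were apart in the same direction for 7 (1.75%), and in opposite directions for 3 (0.75%). Of the 7, the lower ones were Arg1 and Sgpp1, and the higher ones were Bcl2, Golim4, Ikzf1, Itgb1 and Vamp2. Golim4, Ikzf1, Sgpp1 and Vamp2 are named after their values were seen. Bcl2 had log2 fold changes of 0.52 in run 1 and 0.47 in run 2, and Itgb1 0.13 and 0.10, neither called in either run. The test of run 1 minus run 2 called no gene (0%), and 25 (6.25%) had an unadjusted p under 0.05 (edgeR, smallest adjusted p = 0.486). The median SE of that difference was 0.18, so the lack of calls does not show equal effects. Its largest values among the named genes were those of the interferon-inducible chemokine Cxcl10, at 0.21 in run 1 and -1.09 in run 2, Terf2ip at 0.63 and -0.29, and Nlrp3 at 0.42 and -0.48. Cxcl10, Terf2ip and Nlrp3 had low mean raw counts in run 1, at 43.5, 28.5 and 34, and none of their differences passed.

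**Figure D5:**
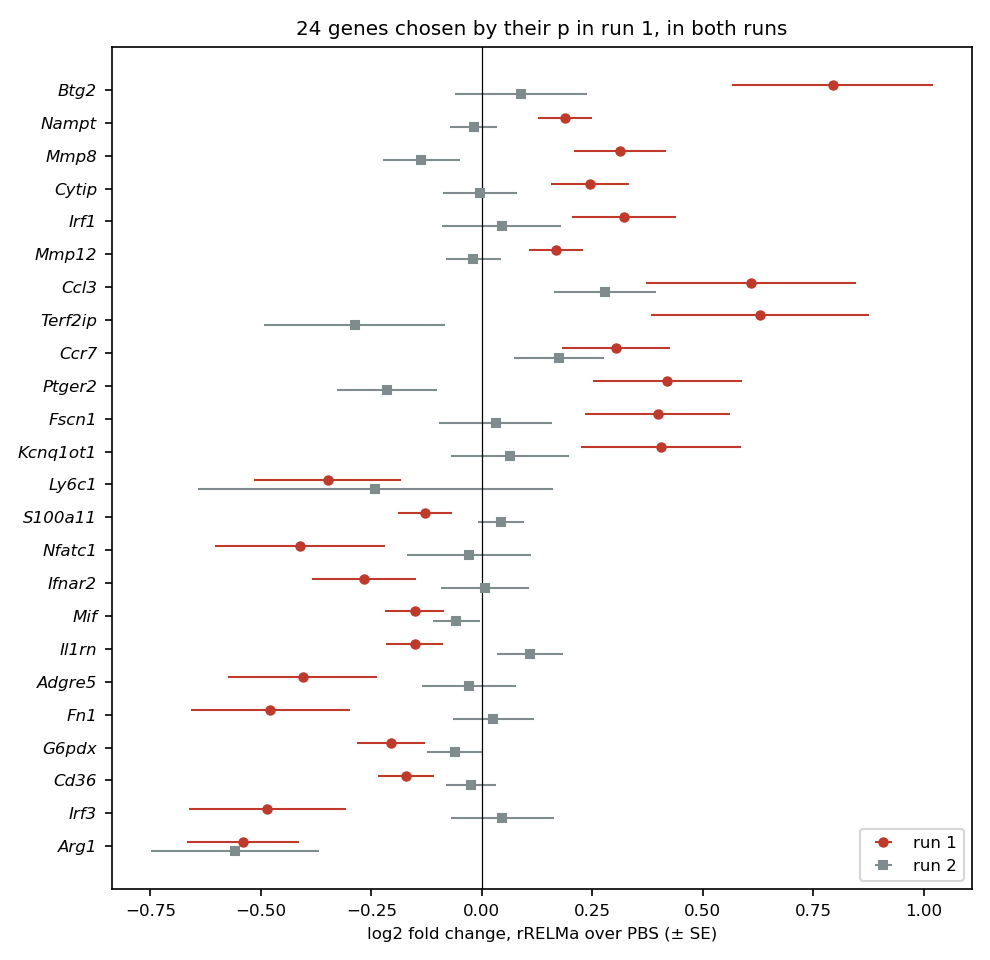
Log2 fold change, rRELMa over PBS, with its SE as a horizontal bar, in run 1 (circles) and run 2 (squares), for 12 genes per direction, those of smallest p in run 1. Arg1 has nearly the same value in both runs (-0.54 and -0.56), whereas the other 23 genes lie closer to 0 in run 2, and 11 of the 23, among them Mmp8, Terf2ip, Ptger2 and Il1rn, lie on the other side of it. Values closer to 0 in run 2 follow in part from choosing the genes by their p in run 1.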

How the data were processed

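The values deposited by the authors are whole-number counts per probe, unscaled, with 6 positive and 8 negative control probes among 768. The unit was read from the values, and the sources used here do not name the counting software. Groups came from the sample titles. Endogenous genes with a mean raw count of at least 20 over the 6 run 1 samples were tested with edgeR 4.0.16 (TMM scaling, quasi-likelihood test, R 4.3.3, limma 3.58.1), rRELMa against PBS, two-sided, with p-values adjusted by the Benjamini-Hochberg method over 400 genes and a gene called at an adjusted p under 0.05. The fit had 4 residual degrees of freedom and 9948.4 prior ones, so that nearly 1 spread was used for all genes, with a biological coefficient of variation of 4.50%. Standard errors are those of the fitted coefficients with the moderated dispersion. The effect in run 2 and the difference between runs came from a fit of all 12 samples with 1 coefficient per group. By chi-square tests over the tested genes, all replicate pairs within a group differed beyond sampling noise.

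The members and the gene lists were chosen with earlier results of these data known. The rule for named genes took called genes, 12 genes per direction by smallest p, up to 4 members of each list, the 10 genes with the highest mean counts, the 6 per direction with the largest fold change at 50 counts or more, genes next to the minimum, genes called in any other fit, 5 per direction by smallest p for run 1 minus run 2, and genes the question is about. List members named beyond these, such as the highest or lowest of a list or those whose groups did not overlap, were chosen after their values were seen. Of the 754 symbols, 744 were current symbols in the GRCm38.p6 gene table, 9 were synonyms there and 1 had no match. The alternatives were other scalings, DESeq2 1.42.0, limma on log2 counts, other minimum counts, subtraction of the negative controls, a fit of all 12 samples, the replicate number as a block and leaving out each sample. The fitting code was tested on simulated data. The values of 1 gene with groups apart in opposite directions in the runs are not reported here.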

Additional observations from a re-analysis of the deposited data

Results flagged for a closer look

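For Ptger2 and Vav1 all rRELMa samples lay above all PBS samples in run 1 and below them in run 2. Ptger2, a receptor of prostaglandin E2, had log2 fold changes of 0.42 in run 1 and -0.21 in run 2, a difference of 0.63 (edgeR, adjusted p = 0.486). Vav1, a signalling protein of blood cells, had 0.18 and -0.20, a difference of 0.37 (adjusted p = 0.486). Neither difference passed the test over the 400 genes.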

How the results depend on the processing

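Arg1 was lower in all 24 other fits and called in 18. The 1 gene called became 0 with DESeq2 (Arg1 -0.54, 15 genes at an unadjusted p under 0.05) and with no minimum count (Arg1 -0.53). It became 2 at a minimum mean of 10 counts (Arg1 and Nkg7), and it was Ctss, not Arg1, after quantile normalization with limma (Arg1 -0.55). Leaving out 1 sample gave 0 to 1 genes and Arg1 values of -0.64 to -0.47, called in 3 of 6 fits. With no minimum count 92 of 754 genes (12.2%) had groups that did not overlap, against 54 of 400 (13.5%). Same-numbered samples did not deviate together (correlations of -0.004, -0.027 and -0.042). These values do not settle whether same-numbered samples share an origin, which the labels do not tell. With the replicate number as a block Arg1 was -0.53 (edgeR, adjusted p = 0.0205), again the 1 gene called. No fit called a gene for the difference between runs. Of the 36 lists with a tested gene, 21 medians were above 0 and 0 with positive-control scaling, and 12 changed sign in at least 1 of the other 5 scalings. These 12 include the lysosomal list, whose only change was to 2.39e-15 after quantile normalization, which is 0 within rounding. Of 132 named genes 52 changed sign in at least 1 fit, counting Ctsd, which reached only 2.06e-15 after quantile normalization. Many of the 52, such as Mmp12, Ccl24 and Itgb1, changed only with positive-control scaling, where 348 of 400 values lay below 0. Others, such as Nos2 and Cd14, also changed in other fits. The causes were not tested. With 3 samples per group and counts often near background, small differences in low genes cannot be seen.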

Other observations

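The type 2 cytokines themselves were at background in run 1. Il4 had 4, 6 and 2 raw counts with rRELMa and 4, 1 and 7 with PBS, and Il13 had 13, 19 and 9 with rRELMa and 14, 11 and 16 with PBS. Among other secreted mediators, Il6, a cytokine of acute inflammation, had 6, 15 and 5 raw counts with rRELMa and 13, 15 and 16 with PBS, and the anti-inflammatory Il10 had 7, 6 and 5 with rRELMa and 5, 4 and 3 with PBS. Il12b, the chain shared by interleukin-12 and interleukin-23, had 26, 15 and 13 with rRELMa and 6, 18 and 8 with PBS. None of these genes reached the minimum count, and they were named after their values were seen.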
